A study of Mus musculus with 28 samples.

Results

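The 10 mouse genes described here carry the TGF-beta signal from ligand to target: the ligand Tgfb1, the receptors Tgfbr1 and Tgfbr2, the signalling proteins Smad2, Smad3 and Smad4, the inhibitor Smad7, the corepressors Ski and Skil, and the target Itgae. They were chosen by gene name, and each matched 1 of the 30608 genes in the deposited table. CTLL2, an interleukin 2-dependent line of mouse cytotoxic T cells labelled C57BL/6, was moved to fresh medium and its RNA was sequenced over the next 8 h. Untreated cells were sampled at 0 h (4 libraries) and at 0.5, 2, 4 and 8 h (3 libraries each). Treated cells received exosomes, the small vesicles that cells shed, from the mouse melanoma line B16F0, given in PBS at 0.2 mg/ml with the fresh medium. They were sampled at 0.5, 2, 4 and 8 h (3 libraries each). The labels name no group given PBS alone, so vesicles and their PBS cannot be told apart. Every group holds 1 library of batch 1 (9 libraries in all), and the other libraries are of batch 2 (19), as the labels name them. The series calls the replicates biological, and all come from 1 cell line.

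TGF-beta is secreted in a latent form and, once freed, binds the type II receptor Tgfbr2, which recruits and activates the type I receptor Tgfbr1. The activated receptor phosphorylates Smad2 and Smad3, which join Smad4 and enter the nucleus to raise or lower target genes. Smad7 is itself a target and blocks the receptor, while Ski and Skil (SnoN) hold SMAD complexes in a repressed state. In cytotoxic T cells the pathway is known for curbing killing and interferon gamma, and for raising Itgae (CD103), the integrin chain that binds E-cadherin on epithelium.

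Positions are on GRCm38, from the GENCODE M21 annotation. Tgfb1 lies on the plus strand at chr7:25687002-25705077, Tgfbr1 on the plus strand at chr4:47353222-47414931, and Tgfbr2 on the minus strand at chr9:116084293-116175360. Smad3 lies on the minus strand at chr9:63646767-63757994, Ski on the minus strand at chr4:155154075-155222592, Skil on the plus strand at chr3:31095058-31122577 and Itgae on the plus strand at chr11:73090583-73147446. Itgae overlaps Haspin, and Smad4 overlaps a processed pseudogene, AC132418.2, both on the opposite strand. Whether the counting used strand is not given in the sources used here, so reads of these pairs cannot be told apart.

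The sequence before the start site is shown for the ligand, a receptor, a signalling SMAD and a corepressor. SMAD complexes bind the short CAGA element, and GC boxes are frequent in promoters that lack a TATA element. The windows come from RefSeq (GRCm38.p6), run 5′ to 3′ on the gene's strand ending at or within 3 bases of the annotated gene, and cover 250 bases, or 193 for Ski. Capitals mark CAGAC and GGGCGG and their reverse complements, GTCTG and CCGCCC. The windows lie at chr7:25686752-25687001 for Tgfb1, chr4:155222593-155222785 for Ski, chr9:116175364-116175613 for Tgfbr2 and chr9:63757995-63758244 for Smad3.
Tgfb1: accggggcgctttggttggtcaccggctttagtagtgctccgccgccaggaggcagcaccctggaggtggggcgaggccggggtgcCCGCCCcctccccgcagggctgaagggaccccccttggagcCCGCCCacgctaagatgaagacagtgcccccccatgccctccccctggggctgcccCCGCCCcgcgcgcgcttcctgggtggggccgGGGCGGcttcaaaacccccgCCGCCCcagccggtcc
Ski: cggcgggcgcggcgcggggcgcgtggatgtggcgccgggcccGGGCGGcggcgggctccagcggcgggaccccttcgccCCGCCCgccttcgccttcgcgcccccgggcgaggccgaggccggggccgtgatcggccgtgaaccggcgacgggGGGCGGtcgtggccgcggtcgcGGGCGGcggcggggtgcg
Tgfbr2: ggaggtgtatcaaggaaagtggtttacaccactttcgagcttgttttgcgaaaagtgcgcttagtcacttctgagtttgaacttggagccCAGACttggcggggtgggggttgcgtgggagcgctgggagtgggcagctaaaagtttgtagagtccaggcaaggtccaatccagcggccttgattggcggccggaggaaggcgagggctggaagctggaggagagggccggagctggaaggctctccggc
Smad3: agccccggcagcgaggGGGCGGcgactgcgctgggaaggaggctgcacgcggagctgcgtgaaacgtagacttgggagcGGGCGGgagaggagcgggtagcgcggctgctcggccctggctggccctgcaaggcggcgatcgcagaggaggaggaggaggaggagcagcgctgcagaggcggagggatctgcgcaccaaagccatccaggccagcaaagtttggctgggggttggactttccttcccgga
The Tgfb1 window held 5 GC boxes, that of Ski 4 and that of Smad3 2, and none of these 3 held CAGAC. The Tgfbr2 window held 1 CAGAC and 0 GC boxes. Over 32851 RefSeq windows of 250 bases, 42.2% held CAGAC and 32.7% held GGGCGG. The SMAD palindrome GTCTAGAC, found in 0.167% of all windows, and the AP-1 element TGANTCA, found in 6.75%, were in none of the 4. The matches describe letters and not bound sites.

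Library depth ranged from 6072984 to 24085812 reads assigned to genes. Values are the authors' normalized counts, that is, reads divided by a size factor for each library. All 13 T cell markers listed, such as Cd3e and Il2ra, had a mean of at least 10 normalized counts. The summed level of 9 melanocyte and melanoma markers was 7.45 to 20.7 in untreated and 59.8 to 176 in exosome-treated libraries, and Tyrp1 was at 0 in every untreated library. Of the 9, 2 (Tyrp1 and Dct) had a mean of at least 10. The muscle gene Acta1 stood at 75.2 to 415 normalized counts in 8 libraries and at 4.71 or less in the others. Untreated 4 h replicate 1 and exosome 8 h replicate 3 stood apart by listing fewer genes at 0 (15.7% and 22.001%, against 27.8% to 39.9% elsewhere).

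The ligand and both receptors were abundant transcripts in these cells, and Smad3 was nearly absent beside Smad2. Per kb of exon, Tgfb1 had the highest mean over the 28 libraries, 748 normalized counts. Smad4 followed at 325, Tgfbr1 at 251, Ski at 155, Tgfbr2 at 140.02, Skil at 113 and Smad2 at 91.1. Smad7 stood at 33.6, Itgae at 24.0 and Smad3 at 1.28. Tgfb1 was above Smad4, Tgfbr1 above Ski, Tgfbr2 above Skil, Smad2 above Smad7 and Itgae above Smad3 in all 28 libraries. Smad4 was above Tgfbr1 in 27, Skil above Smad2 in 26 and Smad7 above Itgae in 23. Ski was above Tgfbr2 in 18 of 19 libraries of batch 2 but in 1 of 9 of batch 1, so the order of these neighbours depended on the batch.

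**Figure D1:**
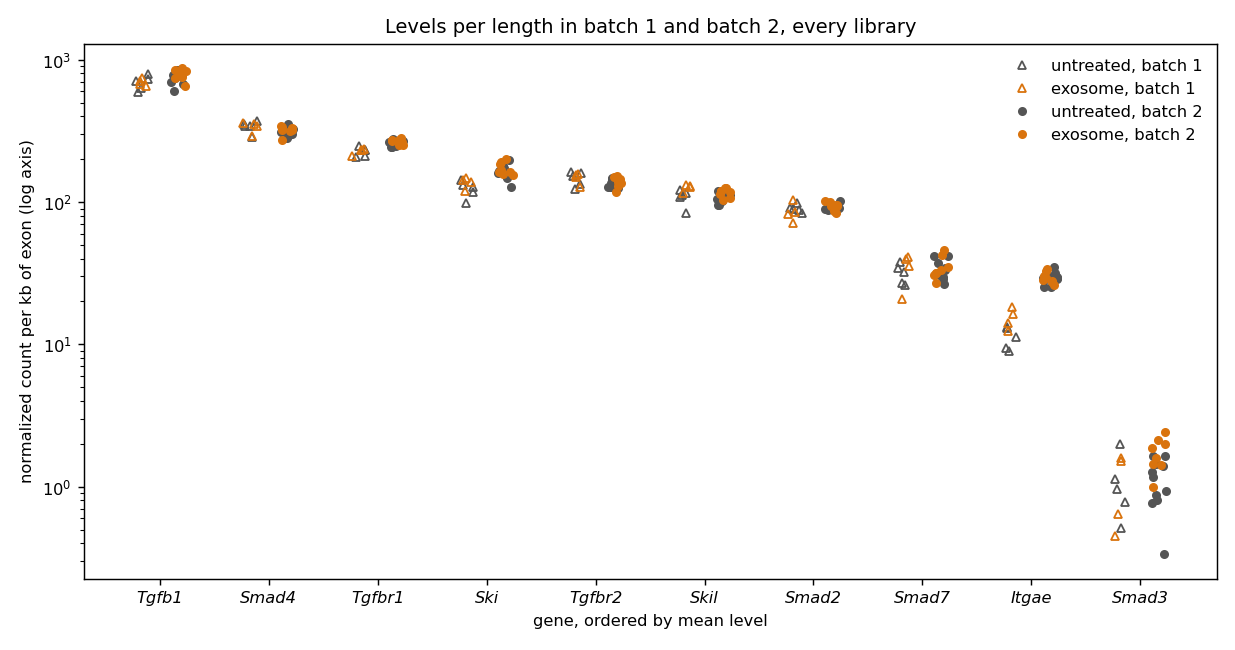
Normalized counts per kb of exon (log axis) of the 10 genes in each of the 28 libraries, with batch 1 as open triangles, batch 2 as filled circles, untreated in grey and exosome-treated in orange. Tgfb1 has a mean of 748 and Smad3 of 1.28, and the batches of Itgae do not overlap.

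Smad3 was close to the limit of detection. Its libraries held 1 to 15 reads each, 213 reads in all. Its normalized counts ran from 1.85 to 13.5, where 3 reads correspond to 1.88 to 7.47. It passed the filter on low values through 5 libraries at 10 or more, of which 4 were exosome-treated. The 12 untreated libraries at 0.5 to 8 h held 91 Smad3 reads (exact Poisson 95% interval 73.3 to 112) of 201803104 reads in all. The 12 treated ones held 107 (87.7 to 129) of 189654435. The intervals cover counting error only and are no test of the difference. In the test over libraries described next, Smad3 differed by 0.24 ± 0.23 log2 in the mean over the 4 times (95% interval -0.24 to 0.72, adjusted p = 0.973, limma). Because the filter admitted Smad3 mostly through treated libraries, its exosome differences are a description and no test. The counts and medians of the members below include it.

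No member passed the test for a difference between exosome-treated and untreated cells at any time. The test was limma on log2(normalized count + 1) with a batch term and Benjamini-Hochberg adjustment over 14828 genes, and a gene is called where its adjusted p is under 0.05. At 0.5 h, 0 of the 10 genes were called, where 0.243% of all genes were. The count was 0 of 10 at 2 h (0.189% of all genes), 0 of 10 at 4 h (0.155%) and 0 of 10 at 8 h (0.452%). In the mean over the 4 times, 0 of 10 were called (0.459% of all genes). For a change of the exosome difference with time, 0 of 10 were called (0% of all genes, with 1873 genes under an unadjusted p of 0.05). At an unadjusted p under 0.05 there were 0 members at 0.5, 2 and 4 h, beside 639, 245 and 645 of the 14828 genes. There were 6 members at 8 h (3968 genes), 3 in the mean (673 genes) and 0 for the change with time. DESeq2 on the recovered reads called 0 members at 0.5, 2 and 4 h and 2 at 8 h, Ski and Skil, where it called 892 genes in all. With edgeR the count was 0 at each of these times.

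**Figure D2:**
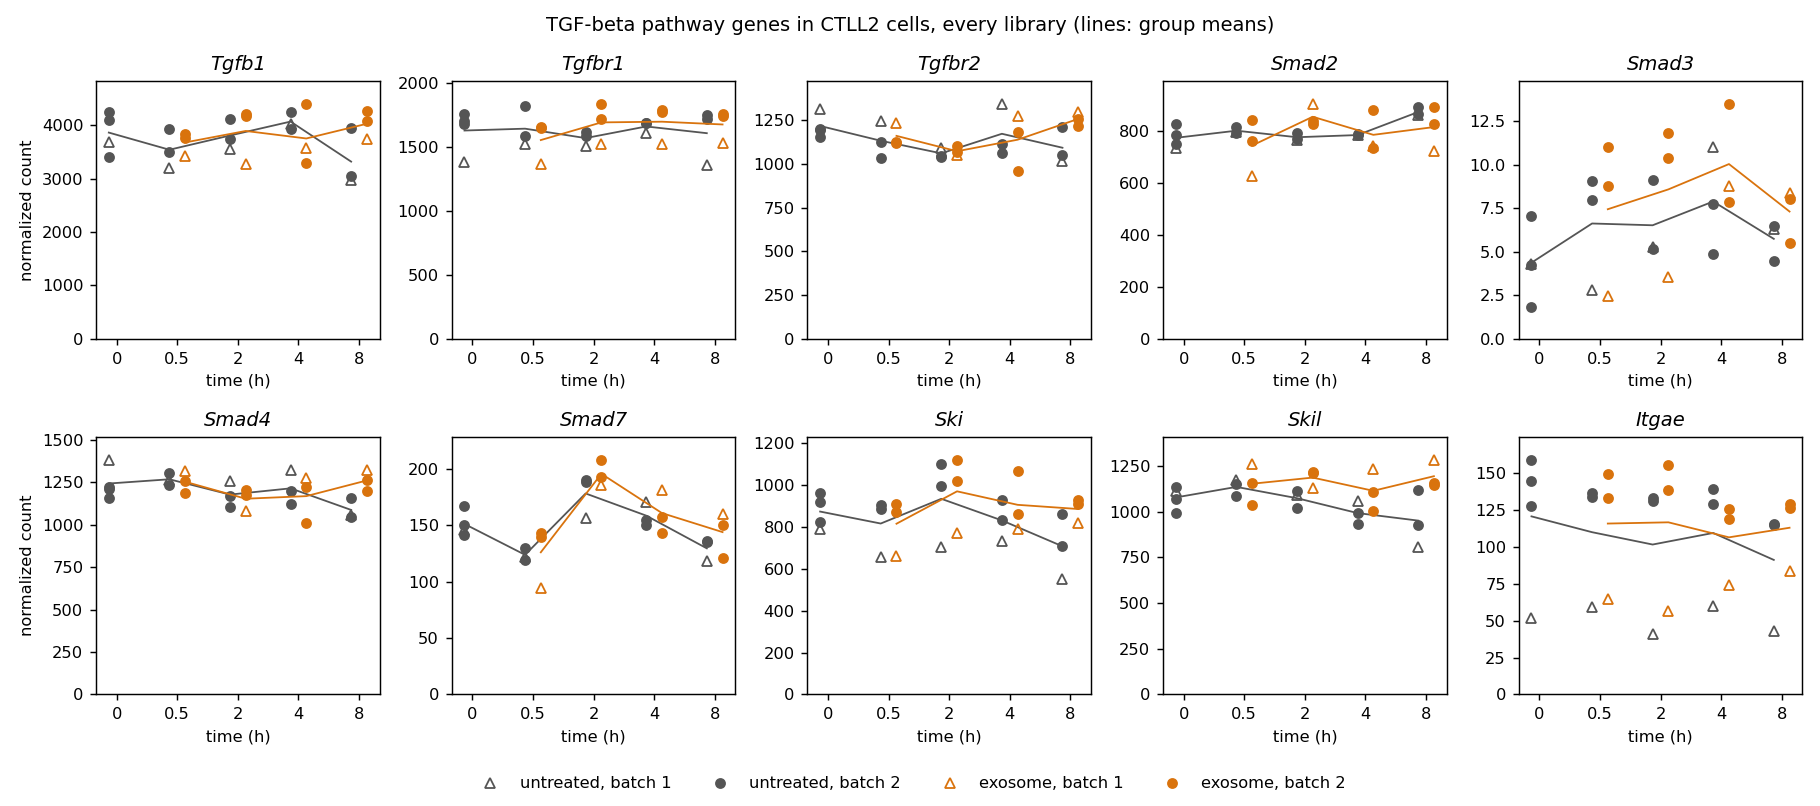
Normalized counts of the 10 genes by time (h) in each library, untreated in grey and exosome-treated in orange, with batch 1 as open triangles and batch 2 as filled circles. Lines join group means: Smad7 stands at means of 124 (untreated) and 126 (treated) at 0.5 h and at 178 and 196 at 2 h.

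Pooled over the 4 times, the ligand and the receptors lay close together in both arms. Tgfb1 ran from 2964 to 4251 normalized counts (median 3829) in the 12 untreated libraries at 0.5 to 8 h and from 3278 to 4384 (median 3799.8) in the 12 treated ones. Its mean difference over the 4 times was 0.06 ± 0.05 log2 (SE, 95% interval -0.04 to 0.16, adjusted p = 0.973). Tgfbr1 ran from 1359 to 1820.5 (median 1615) untreated and from 1365 to 1833 (median 1688) treated, a difference of 0.03 ± 0.03 log2 (-0.03 to 0.09). Tgfbr2 ran from 1015 to 1338 (median 1077) untreated and from 961 to 1296 (median 1153) treated, a difference of 0.05 ± 0.04 log2 (-0.03 to 0.14). These ranges, pooled over times and batches, overlapped between the arms for all 3, and both receptors had an adjusted p of 0.973. The values at 8 h, where the arms of Tgfbr2 did not overlap, are given below. The summed melanocyte markers, higher in treated libraries, are given above, and their part in these values was not tested.

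The signalling SMADs did not pass the test either. Smad2 and Smad4 lie on chromosome 18, as does Smad7. Smad2 ran from 766 to 892 (median 792) in untreated and from 628 to 902 (median 827) in treated libraries. Its mean difference was -0.02 ± 0.04 log2 (95% interval -0.11 to 0.06, adjusted p = 0.973). Smad4, the shared partner, ran from 1044 to 1321 (median 1185) untreated and from 1009 to 1323 (median 1214) treated, a difference of 0.03 ± 0.04 log2 (-0.05 to 0.11, adjusted p = 0.973). At 2 h all 3 treated libraries held more Smad2 (825, 837 and 902) than the 3 untreated ones (766, 771 and 791). That difference, 0.14 ± 0.08 log2, had an adjusted p of 1.00. At 8 h the sign was the opposite, with 724, 828 and 893 treated against 861, 865 and 892 untreated (-0.10 ± 0.08, adjusted p = 0.423).

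Neither the inhibitor Smad7 nor the target Itgae was called in the mean over the 4 times. Smad7 ran from 118 to 190.1 (median 143) in untreated and from 94.7 to 208 (median 154) in treated libraries, a mean difference of 0.07 ± 0.07 log2 (95% interval -0.06 to 0.21, adjusted p = 0.973). Itgae differed by 0.19 ± 0.08 log2 (0.02 to 0.35, adjusted p = 0.973). In batch 1 the 4 treated libraries held 56.5, 64.8, 74.6 and 83.6 Itgae counts against 41.1, 43.2, 59.6 and 60.3 in the 4 untreated ones at 0.5 to 8 h. In batch 2 the 8 treated libraries ran from 119.3 to 156 (median 131) and the 8 untreated from 115 to 139 (median 132). The difference between the batches was -0.42 ± 0.14 log2 (batch 2 minus batch 1), with an unadjusted p of 0.007 and an adjusted p of 0.955. In that test 0 of 10 members were called, against 0.0337% of all genes.

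The corepressor Skil had the smallest unadjusted p of the members in the mean over the 4 times. It stood at 809 to 1172 (median 1071) in the 12 untreated libraries and at 1003 to 1283 (median 1157) in the 12 treated ones, and 5 treated libraries lay above every untreated one. The difference was 0.17 ± 0.05 log2 (95% interval 0.07 to 0.26, adjusted p = 0.274). By time it was 0.02 ± 0.09 at 0.5 h, 0.14 ± 0.09 at 2 h, 0.16 ± 0.09 at 4 h and 0.34 ± 0.09 at 8 h. Ski, the related corepressor, differed by 0.13 ± 0.05 log2 in the mean (0.03 to 0.23, adjusted p = 0.839). Without untreated 8 h replicate 3, Skil alone of the members was called in the mean (0.20 log2, adjusted p = 0.011).

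**Figure D3:**
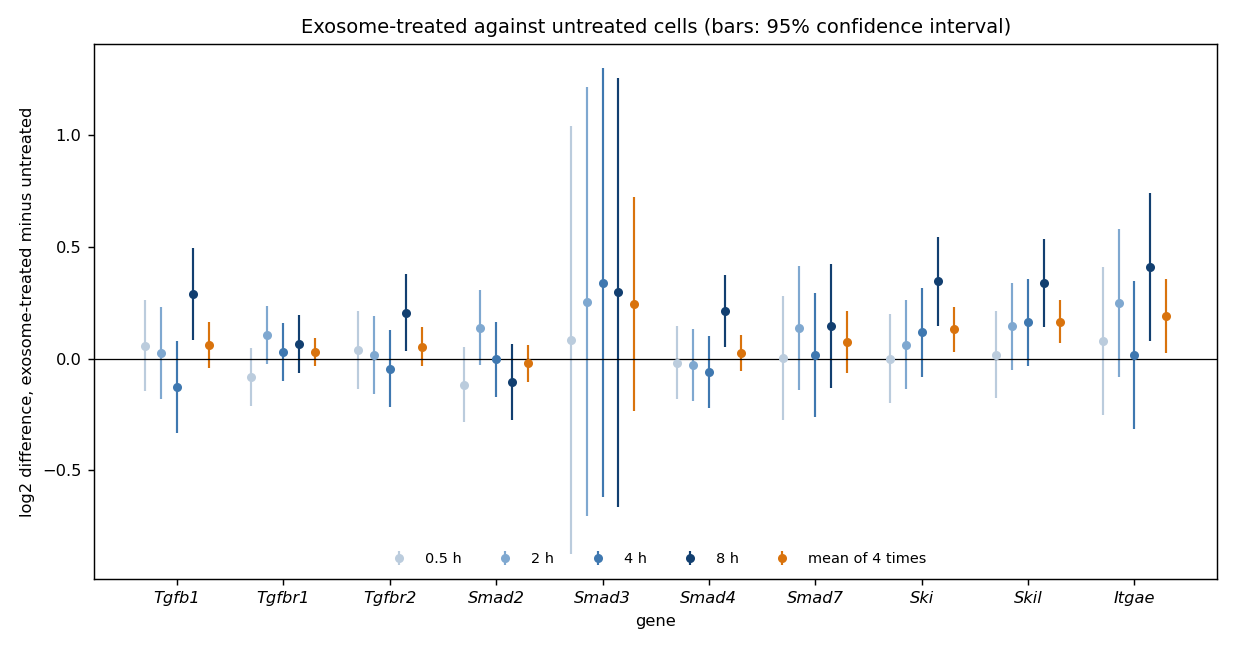
Log2 difference of exosome-treated minus untreated cells for the 10 genes at 0.5, 2, 4 and 8 h (blue shades) and in the mean of the 4 times (orange), with 95% confidence intervals. The 8 h points of Ski (0.35) and Skil (0.34) are the members' intervals farthest from 0, and the Smad3 intervals are wide.

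At 8 h, 9 of the 10 members had a positive difference and 6 had an unadjusted p under 0.05, but none was called. The 9 include Smad3, which passed the filter mostly through treated libraries. The median over the members was 0.25 log2, beside 0.00 over all genes tested, of which 3968 had an unadjusted p under 0.05. Ski stood at 817, 909 and 928 in treated and at 550, 709 and 863 in untreated libraries (0.35 ± 0.10 log2, 95% interval 0.15 to 0.54, adjusted p = 0.077). Skil stood at 1145, 1155 and 1283 treated and at 809, 926 and 1119 untreated (0.34 ± 0.09, 0.14 to 0.53, adjusted p = 0.077). The treated Skil libraries were all above the untreated ones, and 2 of the 3 treated Ski libraries were. Smad4 (1199, 1262 and 1323 against 1044, 1060.1 and 1159) and Tgfbr2 (1218, 1255 and 1296 against 1015, 1050.1 and 1209.5) also did not overlap. Their differences were 0.21 ± 0.08 (adjusted p = 0.099) and 0.21 ± 0.08 (adjusted p = 0.122). How many of all genes separated in this way was not counted, here or in the other comparisons. Tgfb1 differed by 0.29 ± 0.10 (adjusted p = 0.092) and Itgae by 0.41 ± 0.16 (adjusted p = 0.113).

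The untreated libraries at 8 h were unlike one another in Acta1, and the members differed in which of these libraries held the most. Untreated 8 h replicates 1 and 2 held 202 and 206 Acta1 counts and replicate 3 held 3.57, while the 3 treated libraries at 8 h held 1.79 to 2.09. The 10 skeletal muscle markers, 8 of them with a mean of at least 10, summed to 2412, 2264 and 767 in the 3 untreated libraries and to 722 to 785 in the treated ones. Replicate 3 held the highest Ski, Skil, Tgfb1, Tgfbr2 and Smad4 of the 3 untreated libraries. Replicate 2 held the highest Smad2, Smad3, Smad7, Tgfbr1 and Itgae. How many of all genes were highest in each replicate was not counted. Without the 8 libraries that hold Acta1, which leaves 1 untreated library at 8 h, the differences were 0.14 for Ski, 0.06 for Skil, 0.07 for Tgfb1, 0.08 for Smad4, -0.00 for Tgfbr2 and 0.35 for Itgae on the log2 scale. Tgfbr2 had an adjusted p of 1.00 and the other 5 of 0.997. Without untreated 8 h replicate 3, 5 members were called (Tgfb1 0.40, Tgfbr2 0.30, Smad4 0.28, Ski 0.44 and Skil 0.47), and without exosome 4 h replicate 1, Ski and Skil were (adjusted p = 0.039 and 0.041).

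In untreated cells at 8 h against 0 h, the members' calls depended on which libraries were kept. Here 2 of the 10 members were called, both lower, where 31.7% of all genes were called. Ski fell from 822, 918, 962 and 789 at 0 h to 550, 709 and 863 (-0.29 ± 0.09 log2, adjusted p = 0.018), and 2 of the 3 libraries at 8 h lay below all at 0 h. Smad4 fell from 1155, 1211, 1225 and 1382 to 1044, 1060.1 and 1159 (-0.20 ± 0.07, adjusted p = 0.042), again with 2 of 3 below. Within batch 2 the differences were -0.20 for Ski and -0.12 for Smad4, and within batch 1, with 1 library a group, -0.52 and -0.38. Neither was called in batch 2 alone (adjusted p = 0.140 and 0.245), where Itgae was (-0.31, adjusted p = 0.0396). Smad4 also missed the threshold with no filter on low values (adjusted p = 0.0823) and with TMM scaling (-0.18, adjusted p = 0.0523). Without the Acta1 libraries, which leaves untreated 8 h replicate 3 alone at that time, the differences were -0.09 for Ski and -0.07 for Smad4. Each also missed the threshold when untreated 8 h replicate 1 or 2, or untreated 0 h replicate 1, was left out, and Smad4 when 0 h replicate 3 or 4 was. Without untreated 8 h replicate 3, 5 members were called, all lower, with Skil (-0.33), Tgfb1 (-0.32) and Tgfbr2 (-0.27) beside Ski and Smad4. Tgfb1 was also called without untreated 0 h replicate 4 (-0.28, adjusted p = 0.0292). Smad2 was the member with all 3 libraries at 8 h (861, 865 and 892) above all 4 at 0 h (734, 752, 783 and 826), at 0.18 ± 0.08 log2 and an adjusted p of 0.070. Smad7 had all 3 libraries at 8 h below all 4 at 0 h (-0.22 ± 0.13, adjusted p = 0.192).

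At the earlier times no member differed from 0 h beyond the threshold. At 0.5 h, 0 of 10 were called (0.189% of all genes), at 2 h 0 of 10 (1.83%) and at 4 h 0 of 10 (1.19%). An unadjusted p under 0.05 was found for 1 member at 0.5 h (Smad7), 1 at 2 h (Tgfbr2) and 0 at 4 h. Of the 14828 genes, 495, 2075 and 1733 were under it at these times. With DESeq2 and edgeR the count of called members was also 0 at each of these times. Tgfbr2 stood at 1041, 1047 and 1091 at 2 h, below all 4 libraries at 0 h (1155 to 1315), a difference of -0.21 ± 0.08 log2 (adjusted p = 0.218).

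Apart from Smad3, Smad7 had the widest spread of group means, with a ratio of 1.58 between the highest and the lowest (2.29 for Smad3, and down to 1.09 for Tgfbr1). At 0 h it stood at 141, 146, 149.9 and 167 normalized counts. At 0.5 h the untreated libraries held 119.6, 122 and 129.7, all below the 0 h libraries (-0.28 ± 0.13 log2, adjusted p = 1.00), and the treated ones held 94.7, 139.8 and 144. At 2 h the untreated libraries held 156, 188 and 190.1 and the treated ones 186, 193 and 208. All 6 libraries at 2 h were above all 6 at 0.5 h. By 4 h Smad7 stood at 149.8, 155 and 171 in untreated and 144, 157 and 181 in treated cells, and at 8 h at 118, 135 and 136 and at 121, 150.4 and 159.9. The group means over both batches were highest at 2 h and lowest at 0.5 h in both arms, but the order differed within batches. In batch 1 the untreated library was highest at 4 h (171, against 156 at 2 h) and lowest at 8 h (118, against 122 at 0.5 h). In batch 2 the treated mean was lowest at 8 h (136, against 142 at 0.5 h).

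The step from 0.5 to 2 h was tested in each arm, a comparison added after these values had been seen. It sets the lowest Smad7 group mean of each arm against the highest. The p-values and intervals for Smad7 do not allow for that choice, so its calls here are a description. In untreated cells Smad7 rose by 0.52 ± 0.13 log2 (95% interval 0.24 to 0.80, adjusted p = 0.0436), and it was the 1 member of 10 called, where 1.89% of all genes were. In treated cells it rose by 0.65 ± 0.13 log2 (0.38 to 0.93, adjusted p = 0.00804), again the 1 of 10 called (1.58% of all genes). Within batch 2 the rises were 0.60 and 0.50, and within batch 1 0.36 and 0.97. The arms share no library in these 2 comparisons, but both come from 1 fit with a common batch term and a common estimate of the spread. They are therefore not independent tests. Without the Acta1 libraries the rise was 0.46 in untreated (adjusted p = 0.091) and 0.52 in treated cells (adjusted p = 0.517, from 1 library at 0.5 h and 2 at 2 h). The untreated call was also lost in 14 of the 28 fits that left out a library (0.48 to 0.54 log2), and the treated call without exosome 0.5 h replicate 1 (0.46, adjusted p = 0.107) or exosome 2 h replicate 1 (0.62, adjusted p = 0.0504).

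Other genes of the pathway were called between 0.5 and 2 h as well. Of the 87 tested genes of 9 pathway lists, 5 were called in untreated (5.75%, beside 1.89% of all genes) and 7 in treated cells (8.05%, beside 1.58%). The lists were written with earlier results of these data known, so their shares, here and below, are a description and no test. Bambi, a receptor-like protein that blocks type I receptors, rose from 257 to 375 in untreated cells (0.56 ± 0.12 log2, adjusted p = 0.00717). In treated cells Bambi stood at 302 and 328 (0.11 ± 0.12, adjusted p = 0.748), and the difference between the arms was not tested. Smurf2, the ubiquitin ligase that Smad7 brings to the receptor, fell by 0.41 ± 0.07 in untreated and by 0.33 ± 0.07 in treated cells (adjusted p = 0.000695 and 0.00778). Cdkn1a, the cell cycle inhibitor p21, fell by 0.71 ± 0.10 and 0.58 ± 0.10 (adjusted p = 0.000127 and 0.00138). Myc, which TGF-beta lowers in many cells, fell by 0.48 ± 0.07 and 0.70 ± 0.07 (adjusted p = 0.00017 and 7.40e-07), and Tbx21, encoding T-bet, rose by 0.36 ± 0.08 and 0.32 ± 0.08 (adjusted p = 0.0108 and 0.0256). In treated cells the corepressor Tgif1 rose from 519 to 687 (0.40 ± 0.09, adjusted p = 0.022), Klf10, an early TGF-beta target, rose from 1243 to 1524 (0.30 ± 0.06, adjusted p = 0.00563) and the SMAD phosphatase Ctdsp2 fell from 2711 to 2207 (-0.29 ± 0.07, adjusted p = 0.026). With no batch term 0 of the 5 untreated and 0 of the 7 treated calls were kept. In batch 2 alone 5 of the 5 and 4 of the 7 were kept. Without the Acta1 libraries 4 of the 5 calls were kept in untreated and 1 of the 7 in treated cells.

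**Figure D4:**
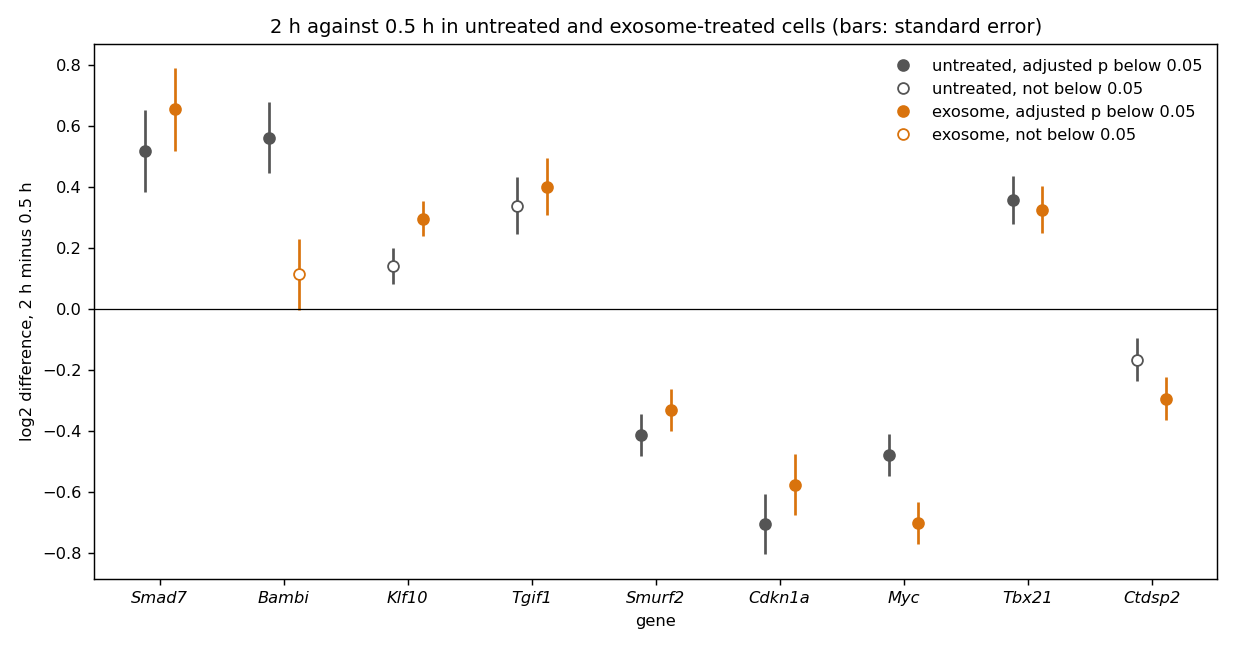
Log2 difference between 2 h and 0.5 h for Smad7 and the pathway genes called in either arm, untreated in grey and exosome-treated in orange, with standard errors. Filled points have an adjusted p under 0.05: Smad7 lies at 0.52 and 0.65, Cdkn1a at -0.71 and -0.58. The comparison was chosen after the Smad7 values had been seen.

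Against 0 h, 3, 8, 4 and 35 of the 87 tested pathway genes were called in untreated cells at 0.5, 2, 4 and 8 h. At 0.5 h the share was 3.45%, beside 0.189% of all genes, and the 3 were higher: Ifng (interferon gamma, 1.07 ± 0.19 log2), Myc (0.37 ± 0.06) and Rgs16 (0.42 ± 0.08). At 2 h the share was 9.20%, beside 1.83% of all genes, with 4 higher and 4 lower. Bambi (0.58 ± 0.11), Klf10 (0.26 ± 0.05), Smurf1 (0.33 ± 0.08) and Ifng (0.99 ± 0.19) were higher, while Cdkn1a (-0.81 ± 0.09), the SMAD target Id2 (-0.39 ± 0.09), Runx1 (-0.50 ± 0.12) and Smurf2 (-0.29 ± 0.06) were lower. The Smurf1 difference was 0.47 within batch 2 and 0.01 within batch 1. Of the 8 calls at 2 h, 2 were kept with no batch term, 7 in batch 2 alone and 6 without the Acta1 libraries. At 4 h the share was 4.60%, beside 1.19% of all genes, and the 4 were lower: Cdkn1a (-0.39 ± 0.09), Id2 (-0.37 ± 0.09), Smurf2 (-0.26 ± 0.06) and the receptor-degrading ligase Nedd4l (-0.42 ± 0.09). The 4 h calls were all lost without untreated 4 h replicate 1 and exosome 8 h replicate 3, the libraries with the fewest genes at 0, and 1 of the 4 was kept with no filter on low values.

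At 8 h against 0 h, 35 of the 87 were called (10 higher, 25 lower), a share of 40.2% beside the 31.7% over all genes. Of 12 nuclear partners and corepressors tested, 1 was higher and 6 lower, among them Ep300 (-0.59 ± 0.14 log2), Runx3 (-0.53 ± 0.14) and Crebbp (-0.50 ± 0.13). Of 12 SMAD-dependent targets, 1 was higher (Gadd45b, 0.54 ± 0.16) and 4 lower, with Cdkn2b (p15) lowest at -1.04 ± 0.19. Of 5 ligand and latency genes, 3 were lower, including Furin, the protease that cuts the TGF-beta precursor (-0.28 ± 0.08), and Itgav, the integrin chain that frees it (-0.34 ± 0.08). Of 10 genes that TGF-beta lowers in T cells, 4 were higher, namely Klrg1 (0.88 ± 0.32), Ifng (0.74 ± 0.19), Gzma (0.68 ± 0.19) and Fasl (0.48 ± 0.10), and 1 was lower. Of 6 genes that it raises, 1 was called, Foxp3 (-0.69 ± 0.19). Without the Acta1 libraries, which leaves untreated 8 h replicate 3 alone at that time, 0 of the 35 calls were kept.

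**Figure D5:**
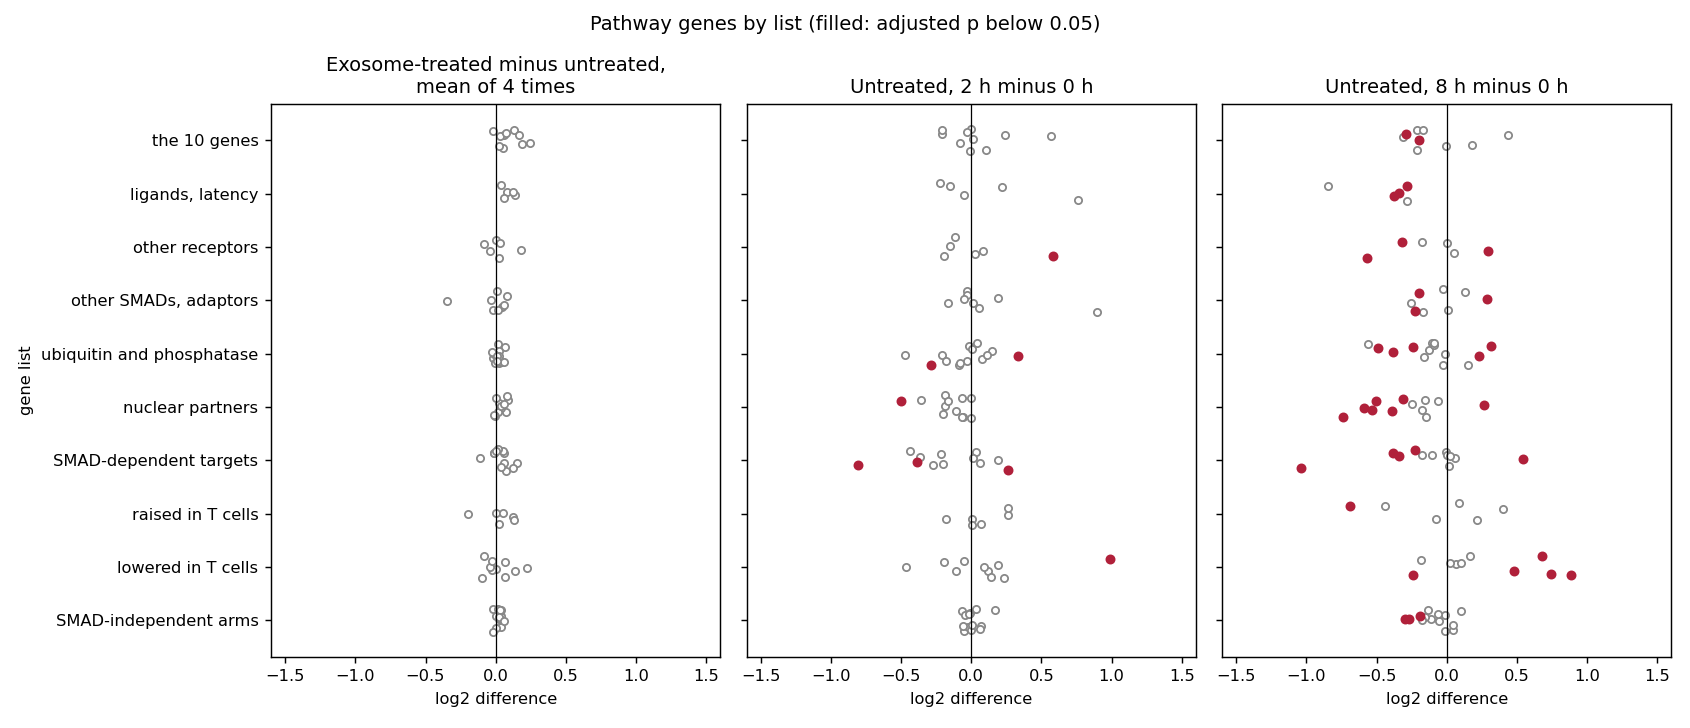
Log2 differences of the 10 genes and of the tested genes of 9 pathway lists, for exosome-treated minus untreated cells (mean of 4 times), untreated 2 h minus 0 h and untreated 8 h minus 0 h. Filled points have an adjusted p under 0.05: 0 of the 87 list genes in the first panel, 8 in the second and 35 in the third.

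In the exosome comparisons 1 other gene of the pathway was called. Of the 87 list genes, 0 were called at 0.5, 2 and 4 h (0.243%, 0.189% and 0.155% of all genes). In the mean (0.459% of all genes) and in the change with time (0%) 0 were called as well. At 8 h 1 was called (1.15%, beside 0.452% of all genes). That gene was Furin, at 4195, 4260 and 4489 in treated and 3045, 3233 and 3655 in untreated libraries (0.39 ± 0.08 log2, adjusted p = 0.032). In the mean over the 4 times the lists' medians lay between -0.01 and 0.08 log2, beside 0.07 for the members and -0.00 for all genes tested. The Furin call was lost with no batch term and in batch 2 alone (0.34, adjusted p = 0.242). It was lost without the libraries with the fewest genes at 0 (0.41, adjusted p = 0.062). It was also lost in 5 fits that left out 1 library at 8 h (adjusted p from 0.060 without exosome 8 h replicate 3 to 0.268 without untreated 8 h replicate 2). Without the Acta1 libraries, which leaves untreated 8 h replicate 3 alone in its group, the difference was 0.22.

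The largest called difference of any member was between the batches. Of the 10, 5 were called (4 higher in batch 2 and 1 lower), where 57.6% of all genes were called. Itgae ran from 115 to 159.1 (median 133) in the 19 libraries of batch 2 and from 41.1 to 83.6 (median 59.6) in the 9 of batch 1, with no overlap, a difference of 1.18 ± 0.08 log2 (adjusted p = 3.3e-12). Ski averaged 927 ± 101 (SD) in batch 2 and 718 ± 85.3 in batch 1 (0.37 ± 0.05 log2), with 18 of 19 libraries of batch 2 above all of batch 1. Tgfbr1 averaged 1711 and 1482 (0.21 ± 0.03), with 17 of 19 above. Tgfb1 was higher by 0.16 ± 0.05 (adjusted p = 0.008) and Tgfbr2 differed by -0.11 ± 0.04 (adjusted p = 0.027) in overlapping ranges. The Tgfbr2 call was lost without untreated 0 h replicate 1, untreated 0.5 h replicate 1, untreated 4 h replicate 2 or exosome 4 h replicate 2 (-0.10 to -0.09, adjusted p from 0.0518 to 0.0889). Smad2, Smad3, Smad4, Smad7 and Skil were not called. Smad4 (-0.08 ± 0.04, adjusted p = 0.0652) was called by edgeR (-0.09, adjusted p = 0.0363), without the Acta1 libraries (-0.12, adjusted p = 0.0184) and without exosome 2 h replicate 2 or 3, exosome 4 h replicate 3, or untreated 8 h replicate 1 or 3 (-0.11 to -0.09, adjusted p from 0.0153 to 0.0481). Skil was called without untreated 8 h replicate 1 (-0.10, adjusted p = 0.0483). In the pathway lists 59 of 87 tested genes were called, among them Runx1 (0.93 ± 0.07), Smurf1 (0.66 ± 0.04), Bambi (0.59 ± 0.06), Foxp3 (-0.78 ± 0.10) and the aryl hydrocarbon receptor Ahr (-2.40 ± 0.12), which TGF-beta raises in T cells. What the batches share besides their label is not given in the sources used here.

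Genes with the pattern most like a member's were sought among those with a mean of at least 50 normalized counts, by Pearson's r over the 28 libraries after centring each batch. For Ski the 3 highest of 9858 genes were Dnmbp (r = 0.84), Pogk (0.83) and Usp10 (0.81). For Smad7 they were B4galt5 (0.78), Hes1 (0.77) and Ino80e (0.75). These are the members called in more than 1 comparison. For Smad7 both calls come from the step chosen after its values had been seen. The values are a description, chosen as the highest among many genes and measured in libraries that share their batch, depth and Acta1 differences.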

How the data were processed

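RNA of 28 CTLL2 cultures was extracted with TRIzol and made into TruSeq RNA (kit v2) libraries, per the labels' protocols. The genome build was GRCm38.p2, and featureCounts 1.5.0, DESeq2 (under R 3.3.2), STAR 2.4.2 and CASAVA 1.8.4 were used, per the submitters' processing notes. The authors deposited size-factor normalized counts per gene, a signal in which 100% of the values were whole reads within 0.01 read once divided by what 1 read is worth in that library. Size factors were 0.401 to 1.59.

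Gene symbols came from a table of names that matched 30403 of 30608 identifiers. Genes with at least 10 normalized counts in at least 3 libraries (14828) were tested with limma 3.58.1 (R 4.3.3) on log2(value + 1), with group means and a batch term (18 residual degrees of freedom), Benjamini-Hochberg adjustment and a threshold of 0.05. A fold change on this scale understates the change of low genes. P-values measure the spread between these cultures of 1 line. Alternatives were the pseudocount, the filter, the batch term, batch 2 alone, a replicate block, TMM scaling, edgeR 4.0.16 and DESeq2 1.42.0 on the recovered reads, and each library left out. Leaving out the libraries with Acta1 (above 50) or with the fewest genes at 0, and the comparison of 2 h with 0.5 h, were chosen after seeing the data. The limma fit was first tried on simulated data, for the mean exosome effect alone. The other comparisons, edgeR and DESeq2 were not tried in this way. The members and the lists were chosen with earlier results of these data known. All 10 members are described, and of each list up to 4 called genes a comparison, with the same sign in both batches, could be named by size of change.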

Additional observations from a re-analysis of the deposited data

How the results depend on the processing

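Of the 9 called results of the members, 3 kept their call in every alternative run (Itgae, Ski and Tgfbr1 between batches) and 6 lost it in some, and no member result changed sign past the threshold. The 9 include the Smad7 calls at 2 h against 0.5 h, a comparison chosen after seeing its values. The counts of called genes that moved by over 1.5 times were as follows, and the cause was not tested. With no filter they were 80 (exosome 0.5 h), 35 (exosome 4 h), 193 (mean exosome effect), 176 (untreated 2 h against 0 h) and 2 (exosome effect between batches), with 1 member at 8 h against 0 h and 0 at untreated 2 h against 0.5 h. With no batch term they were 29 (exosome 8 h), 12, 18, 10 and 1834 (untreated 0.5, 2, 4 and 8 h against 0 h), 30 and 16 (2 h against 0.5 h, untreated and treated), with 0 members at 8 h and in both 2 h against 0.5 h comparisons. In batch 2 alone they were 39 (exosome 4 h), 3 (exosome effect by time), 505 and 716 (untreated 2 and 4 h), with 1 member at 8 h. Same-numbered libraries did not vary together (median r of -0.04 over 108 pairs, 0.01 over 240 others). With the replicate block the counts were 44 (exosome 8 h), 138 and 92 (untreated 2 and 4 h) and 3 (between batches), with 0 members at untreated 2 h against 0.5 h. The replicate block exchanged Smad4 (adjusted p = 0.0649) for Tgfb1 (0.0201) among the members called at 8 h against 0 h, and Tgfb1 (0.144) for Smad4 (0.0376) between batches. It kept 2 of 3, 5 of 8, 1 of 4 and 28 of 35 pathway calls at untreated 0.5, 2, 4 and 8 h against 0 h. DESeq2 gave 892 at exosome 8 h with 2 members, and 416 and 291 at untreated 2 and 4 h. TMM scaling gave 1 member at 8 h and 3 genes between batches, where pseudocounts 0.5 and 5 gave 1 and 11 and edgeR gave 1. Without the Acta1 libraries the counts were 20, 15, 14 and 16 (exosome 0.5, 2, 4 and 8 h), 398 (untreated 8 h), 58 (treated 2 h against 0.5 h) and 150 (between batches), with 0 members at 8 h against 0 h and in both 2 h against 0.5 h comparisons. There the uncalled untreated 8 h values of Bmpr2 (0.0358 log2), Ncor1 (0.0688), Hdac1 (-0.0382), Zeb1 (0.00556), Rock1 (0.0325) and Rock2 (0.0104) had the opposite sign. Without the libraries with the fewest genes at 0 they were 39 (exosome 8 h), 78 (untreated 4 h) and 2 (between batches), with 0 members at untreated 2 h against 0.5 h. Leaving out each library gave 14 to 30 (exosome 2 h), 25 to 3903 with 0 to 5 members (exosome 8 h), 0 to 1348 (by time), 0 to 1 members (mean), 148 to 325, 52 to 229 and 2112 to 5679 (untreated 2, 4 and 8 h, the last with 0 to 5 members), 133 to 334 and 104 to 293 (2 h against 0.5 h, each with 0 to 1 members) and 2 to 5 (between batches). A planned rule on the sum of muscle markers left out 0 libraries and was not run. Depth limited Smad3 most, at 1 to 15 reads a library.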
